A study of Mus musculus with 6 samples.

Results

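The resident macrophage genes were 10 genes taken by name, in a choice made with earlier results of these data known: Csf1r, Adgre1, Mrc1, Cd163, Lyve1, Folr2, Timd4, C1qa, C1qc and Mertk. They were found as 10 of the 56262 gene identifiers counted in leg muscle of E18.5 mouse fetuses, and all 10 were among the 22071 genes with enough reads to be tested. RNA from 3 wild type (WT) and 3 SYISL knockout (KO) samples was sequenced. SYISL is a long non-coding RNA whose gene overlaps an intron of Synpo2. The KO fetuses came from KO dams mated to KO sires and the WT fetuses from WT matings, with WT mice supplied by an animal centre, so fetal genotype, maternal genotype, litter and colony cannot be told apart. No symbol in the files names SYISL, and the deletion was not checked here. The sources used here did not say whether the 3 samples of a genotype were separate fetuses or litters, so the p-values below measure only the spread between these samples.

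Tissue-resident macrophages are seeded in the embryo from yolk sac and fetal liver progenitors, and in muscle they lie in the connective tissue between fibers and along vessels. They depend on the receptor CSF1R, which binds CSF1 and IL34. They clear dying cells, aided by receptors for exposed phosphatidylserine (TIMD4 directly, MERTK through the bridging proteins GAS6 and PROS1) and by the complement protein C1q. They take up sugars, hyaluronan, folate and haemoglobin complexes through MRC1, LYVE1, FOLR2 and CD163.

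Each library held 82054811 to 102233181 counts. Skeletal muscle transcripts were high in both genotypes. Acta1, which encodes skeletal alpha-actin, was at 4280 to 4635 CPM in WT and at 10524 to 13505 CPM in KO. CPM are counts scaled to a common library size. The summed level of 10 skeletal muscle genes was 19211 to 21530 CPM in WT and 40867 to 50124 CPM in KO. By the thresholds below 7 of these 10 were called higher in KO and 0 lower, against 8.31% and 8.39% of all genes tested. By adjusted p alone Myog was lower (log2 -0.22, adjusted p = 0.00212 by edgeR). The WT samples also carried skin transcripts: the summed level of 8 keratinocyte genes was 15696 to 23608 CPM in WT and 670 to 776 CPM in KO, with all 8 lower in KO, and it was highest in WT replicate 2. The part of these tissue differences in the results below was not tested.

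Sequence upstream of the start site in RefSeq (GRCm38.p6) was used for 6 of the 10 genes. Csf1r, Adgre1, Lyve1 and C1qa were not searched. The 250 bases before the start were searched on both strands for GAGGAA. These are the core letters bound by PU.1, the factor that directs the macrophage lineage (its gene is Spi1). The letters occurred in 2 of the 6 genes, Mrc1 and C1qc, and in 23.3% of 32851 mouse promoters of the same length. The AP-1 letters TGANTCA occurred in 1 of the 6, at the second annotated start of Folr2, and in 6.75% of all promoters, and no match of one motif overlapped one of the other. The 3 sequences below show the gene with the most matches, the C1q gene with a match, and Cd163, the gene with the largest change in level, which had none. They read 5′ to 3′ on the gene's strand, ending at the base before the start, with GAGGAA or its reverse complement TTCCTC in capitals.
Mrc1 (chr2:14229164-14229413, plus strand): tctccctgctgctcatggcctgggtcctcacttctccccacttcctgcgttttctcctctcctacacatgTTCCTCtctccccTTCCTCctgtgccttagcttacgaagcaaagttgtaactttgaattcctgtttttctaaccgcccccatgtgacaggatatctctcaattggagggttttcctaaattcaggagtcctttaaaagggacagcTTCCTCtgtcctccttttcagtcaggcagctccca
C1qc (chr4:136892915-136893164, minus strand): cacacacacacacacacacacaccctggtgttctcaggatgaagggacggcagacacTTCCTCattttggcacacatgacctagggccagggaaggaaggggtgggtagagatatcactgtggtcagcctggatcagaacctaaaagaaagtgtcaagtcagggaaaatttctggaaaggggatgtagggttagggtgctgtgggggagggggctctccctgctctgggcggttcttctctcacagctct
Cd163 (chr6:124304401-124304650, plus strand): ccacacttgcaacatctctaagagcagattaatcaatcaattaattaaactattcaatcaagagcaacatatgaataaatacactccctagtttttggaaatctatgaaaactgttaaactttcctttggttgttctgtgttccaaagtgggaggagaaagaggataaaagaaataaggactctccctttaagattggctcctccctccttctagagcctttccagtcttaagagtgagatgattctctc
In Mrc1 the 3 matches lay on the opposite strand and began 180, 167 and 35 bases before the start, and in C1qc the match began 193 bases before it. Both starts are those of RefSeq and lie inside the gene spans given below. Those spans begin at 14229392 for Mrc1 and, on the minus strand, at 136893065 for C1qc. A match is only an occurrence of the letters. Cd163, whose level differed most between the genotypes, holds no match in this window. Whether matches and changes in level are linked was not tested.

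All 10 resident macrophage genes had higher levels in every KO sample than in every WT sample. The summed level of the 10 was 285 to 298 CPM in WT and 482 to 531 CPM in KO. A gene was called where the edgeR quasi-likelihood test gave a Benjamini-Hochberg adjusted p below 0.05 and the fold change passed 1.5: 8 of the 10 were called higher and 0 lower, against 8.31% of all genes tested called higher and 8.39% called lower. By adjusted p alone 10 of 10 were higher (9 when scaled by library size only, without Mertk), against 21.9% of all genes higher and 23.1% lower, and separation of all KO from all WT values in this direction was found in 27.3% of all genes. The median log2 fold change of the 10 was 0.86 (range 0.20 to 1.91), against -0.0041 for all genes tested. In bulk RNA, more cells of a type and more RNA per cell cannot be told apart. The count was 6 of 10 when libraries were scaled to their summed blood endothelium or pan-leukocyte counts, a choice made after the data were seen, which lowered the median of all genes to -0.21 and -0.19.

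**Figure D1:**
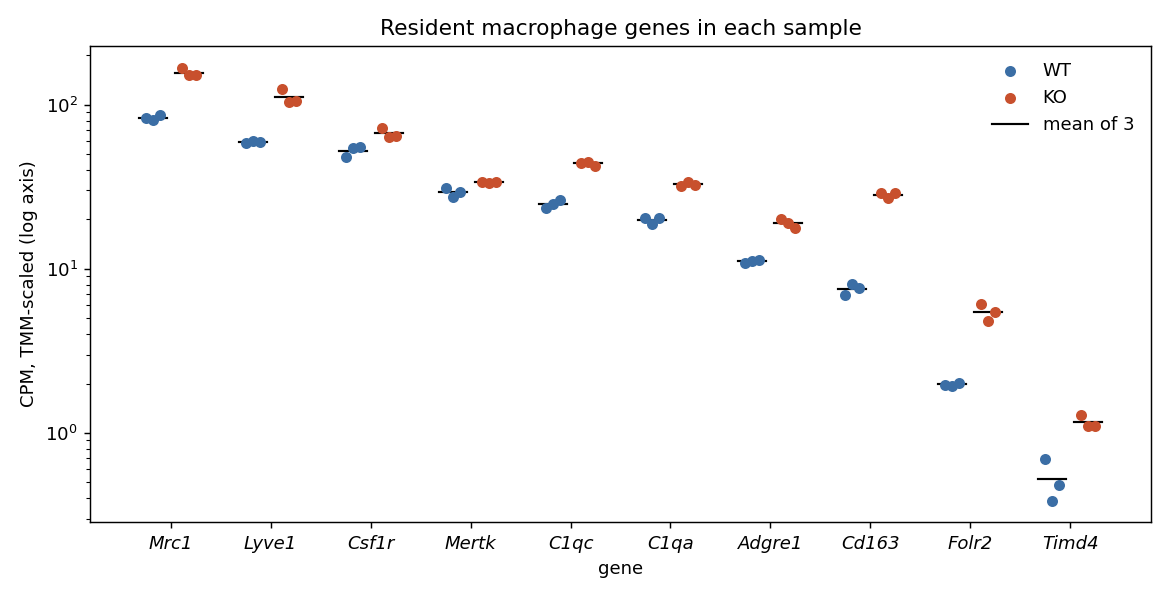
Level of each of the 10 genes in each sample, in TMM-scaled CPM on a log axis, with 3 WT points in blue, 3 KO points in orange and a bar at each mean. For every gene the 3 KO points lie above the 3 WT points, narrowly for Mertk and widely for Cd163.

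Per kilobase of exon, Lyve1 was the most abundant of the 10 in both genotypes, at 20.3 ± 0.307 CPM per kb in WT and 38.0 ± 3.93 in KO (SD, n = 3). C1qa followed, at 19.1 ± 0.929 in WT and 31.5 ± 0.964 CPM per kb in KO. Timd4 was the lowest, at 0.240 ± 0.0730 in WT and 0.536 ± 0.0463 CPM per kb in KO. In WT the order was Lyve1, C1qa, Mrc1, C1qc, Csf1r, Mertk, Adgre1, Cd163, Folr2 and Timd4, and the sample values of only 2 neighbouring pairs overlapped, Mrc1 with C1qc and Cd163 with Folr2. The order in KO was the same, and no neighbours overlapped. Cd163 came closest to Adgre1 there, at 5.18 ± 0.219 against 5.86 ± 0.335 CPM per kb, where in WT it had been at 1.38 ± 0.106 against 3.45 ± 0.0656. Folr2 and Csf1r share 63.1% and 15.1% of their exon bases with genes on the other strand. The part of this in their places in the order was not tested.

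Csf1r, the receptor tyrosine kinase for CSF1 and IL34 on which macrophage survival depends, was at 48.2, 54.3 and 54.8 CPM in WT replicates 1 to 3 and at 72.1, 63.4 and 64.8 CPM in KO. The groups did not overlap, but the fold change was 1.27 and Csf1r was not called (log2 0.35, SE 0.064, adjusted p = 0.00173 by edgeR). The gene lies on the plus strand of chromosome 18 (mm10, 61100598 to 61132149), and 15.1% of its exon bases also belong to exons of Hmgxb3 on the other strand. Hmgxb3 had a log2 fold change of -0.15 (adjusted p = 0.0536). Whether reads were counted by strand was not given in the sources used here. Adgre1, the adhesion G protein-coupled receptor most used to mark mouse macrophages (chromosome 17, 57358691 to 57483527, plus strand), held 10.9, 11.2 and 11.3 CPM in WT and 20.0, 19.1 and 17.8 CPM in KO. The 3 WT samples lay close together and the KO samples all stood well above them. Adgre1 rose by a log2 fold change of 0.76 (SE 0.061, adjusted p = 8.08e-06).

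Among the uptake receptors, Cd163 had the largest difference of the 10. It encodes the scavenger receptor for haptoglobin-haemoglobin complexes (chromosome 6, 124304656 to 124330527, plus strand). The 3 WT libraries held 655, 666 and 808 reads of it and the 3 KO libraries 2730, 2564 and 2801, or 6.92, 8.06 and 7.65 CPM against 29.1, 26.9 and 28.8 CPM. Every KO sample stood far above every WT sample, and the fold change was 3.75 (log2 1.91, SE 0.070, adjusted p = 9.54e-08). Folr2, the folate receptor of tissue macrophages (chromosome 7, 101839988 to 101857194, minus strand), was at 1.96, 1.94 and 2.03 CPM in WT and at 6.11, 4.78 and 5.49 CPM in KO. It rose 2.76-fold (log2 1.47, SE 0.10, adjusted p = 3.77e-06). Of its exon bases, 63.1% are shared with Gm10602 on the other strand, whose log2 fold change was 0.41 (adjusted p = 0.0133). Without strand, reads of the shared bases cannot be assigned to either gene. How such reads were counted was not given in the sources used here.

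Mrc1, the mannose receptor (chromosome 2, 14229392 to 14332057, plus strand), had the highest counts of the 10. It was at 83.3, 80.3 and 86.2 CPM in WT and at 168, 152 and 151 CPM in KO. The log2 fold change was 0.91 (SE 0.052, adjusted p = 9.75e-07). Lyve1, the hyaluronan receptor that lymphatic endothelium also carries (chromosome 7, 110850607 to 110863239, minus strand), was at 58.4, 60.2 and 59.0 CPM in WT and at 124, 104 and 105 CPM in KO. It rose by a log2 fold change of 0.90 (SE 0.066, adjusted p = 4.61e-06), with KO replicate 1 the highest. The 7 other lymphatic endothelium genes had 0 called by edgeR and 0 by DESeq2 and a median of 0.10, with 4 higher and 2 lower at an unadjusted p below 0.05. By adjusted p alone 3 were higher and 1 lower, against 21.9% and 23.1% of all genes tested. Mmrn1 came closest to a call, at 14.8, 17.5 and 18.1 CPM in WT and at 26.2, 23.3 and 25.3 CPM in KO (log2 0.57, adjusted p = 0.000375), and 1 gene of the list was called with upper-quartile factors or without WT replicate 2, WT replicate 3 or KO replicate 2. The summed level of the list, most of it Nrp2 (215 CPM in WT and 189 in KO), was 348 to 376 CPM in WT and 352 to 367 CPM in KO.

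Timd4 and Mertk encode receptors for dying cells. Timd4 (chromosome 11, 46810800 to 46844332, plus strand) was read 66, 32 and 51 times in WT and 120, 105 and 108 times in KO, or 0.697, 0.387 and 0.483 CPM against 1.28, 1.10 and 1.11 CPM. It was the least precise of the 10, with a log2 fold change of 1.15, an SE of 0.20 and an adjusted p of 0.00145 by edgeR. Leaving out 1 sample or changing the tool or scaling gave 0.94 to 1.40 (log2). Mertk (chromosome 2, 128698956 to 128802894, plus strand) was at 30.9, 27.2 and 29.5 CPM in WT and at 34.0, 33.1 and 33.9 CPM in KO. The gap between the groups was smaller for Mertk than its spread within WT, and it was not called (log2 0.20, SE 0.052, adjusted p = 0.0107). Scaled to blood endothelium counts, the value was -0.0050.

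C1qa and C1qc encode chains of C1q, the protein that starts the classical complement pathway, and they lie beside C1qb in a cluster of 18675 bases on the minus strand of chromosome 4. C1qa spans 136895917 to 136898803 and C1qc spans 136889804 to 136893065. C1qa was at 20.4, 18.7 and 20.4 CPM in WT and at 31.9, 33.8 and 32.5 CPM in KO (log2 0.72, SE 0.052, adjusted p = 4.32e-06). C1qc was at 23.4, 24.9 and 26.4 CPM in WT and at 44.1, 44.9 and 42.5 CPM in KO (log2 0.82, SE 0.052, adjusted p = 1.91e-06). Both rose, and C1qb, the remaining chain, was at 36.3, 32.4 and 34.4 CPM in WT and at 56.7, 51.4 and 49.5 CPM in KO (log2 0.61, SE 0.060, adjusted p = 3.32e-05). The ratios of the chains to each other need no scaling between libraries. C1qb to C1qa differed by -0.11 (log2, exact permutation p = 0.4) and C1qc to C1qa by 0.095 (p = 0.3, exact, two-sided). C1qc to C1qb was 0.21 higher in KO without overlap, at an exact p of 0.1, the smallest that 3 against 3 samples allow (0.3 after adjustment over the 3 ratios).

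**Figure D2:**
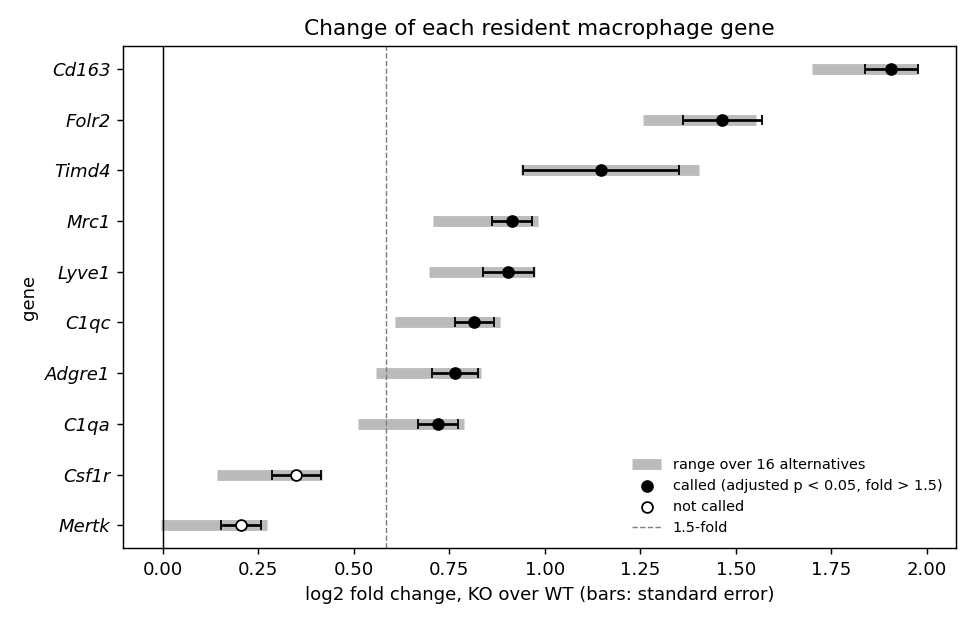
Log2 fold change of each gene in KO over WT with its standard error, filled where called, the dashed line at 1.5-fold and the grey band giving the range over 16 alternative settings. Csf1r and Mertk lie below the dashed line, and the bands of Adgre1 and C1qa cross it.

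The size of the difference varied among the 10 genes. Relative to the Csf1r count of the same sample, a ratio that no library scaling can move, 8 of the 9 other genes were higher in every KO sample than in every WT sample, as were 6.24% of all genes tested. The log2 ratio of Cd163 to Csf1r was -2.80, -2.75 and -2.84 in WT and -1.31, -1.24 and -1.17 in KO, a difference of 1.56 or 2.95-fold. Folr2 followed with a difference of 1.11 and Timd4 with 0.85. Mrc1 and Lyve1 shifted by 0.56 and 0.55, C1qc by 0.47, Adgre1 by 0.41 and C1qa by 0.37. Mertk to Csf1r overlapped between the groups and differed by -0.14 (exact permutation p = 0.4). Each of the 8 separated ratios had an exact two-sided p of 0.1, the smallest possible with 3 against 3, and 0.1125 after adjustment over the 9 ratios, so that no ratio could pass the threshold in this design.

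**Figure D3:**
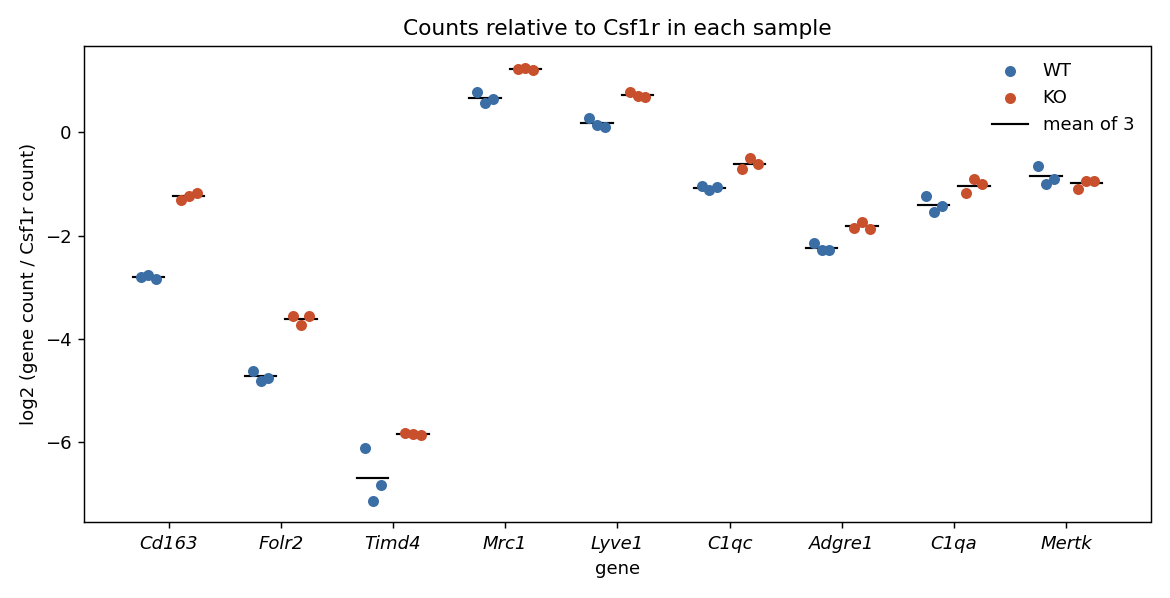
Log2 ratio of each gene's count to the Csf1r count in each of the 3 WT (blue) and 3 KO (orange) samples, with bars at the means. The KO points stand above the WT points for 8 genes, with the widest gap for Cd163, and overlap for Mertk.

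The genes whose log2 level followed that of Csf1r most closely over the 6 samples were Fgfr1 (Pearson r = 0.998), Dcn (0.997), Nfam1, Reck and Arhgap4 (each 0.996), among genes that averaged at least 5 CPM. The points share the 2 genotypes and their library depths, and the values are a description. The other 9 resident macrophage genes had r from 0.71 for Mertk and 0.76 for Timd4 to 0.95 for Lyve1 with Csf1r. Fgfr1 and Dcn, genes of fibroblasts and other mesenchymal cells, had log2 fold changes of 0.21 and 0.18 and were not called.

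A wider list of macrophage genes was called in part. Of its 38 genes 36 were tested, with a median log2 fold change of 0.44. Of these, 12 were called higher and 0 lower, against 8.31% and 8.39% of all genes tested. By adjusted p alone 26 were higher and 2 lower, against 21.9% and 23.1% of all genes tested. Siglec1, a sialic acid-binding lectin of tissue macrophages, was at 5.44, 5.47 and 6.31 CPM in WT and at 17.5, 14.2 and 15.0 CPM in KO (log2 1.44, adjusted p = 2.50e-06). Ms4a4a rose by 1.25, Clec10a, a galactose-type lectin, by 1.05 and Fcgr1, the high-affinity Fc gamma receptor, by 0.99 (log2). Pf4, Ms4a6c, F13a1 and Cd86 rose by 0.87, 0.85, 0.82 and 0.76. Other genes of this list had values near or below 0 and were chosen here after their values were seen: Cx3cr1, the fractalkine receptor, had -0.04 (adjusted p = 0.739), Stab1 0.15 (0.210) and Lyz2, which encodes lysozyme, -0.27 (0.00571).

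Of 16 genes for the ligands of CSF1R and the factors of the lineage, 1 was called higher and 4 lower. The median was 0.18, and over all genes tested 8.31% were called higher and 8.39% lower. Csf1 was at 88.7, 61.9 and 72.3 CPM in WT and at 94.6, 87.4 and 89.9 CPM in KO, with overlap (log2 0.29, SE 0.11, adjusted p = 0.0526). Il34, the other ligand, which epidermal cells also make, was at 5.0, 5.68 and 5.0 CPM in WT and at 2.58, 2.91 and 2.54 CPM in KO and fell by 0.96 (log2, adjusted p = 2.61e-05). Spi1, which encodes PU.1, was at 7.16, 8.24 and 8.27 CPM in WT and at 11.4, 10.4 and 10.6 CPM in KO, and was not called (log2 0.45, adjusted p = 0.00109). The C/EBP factors Cebpa and Cebpb fell by 1.33 and 0.85, and Nr1h3, which encodes the oxysterol receptor LXR alpha, rose by 1.17.

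**Figure D4:**
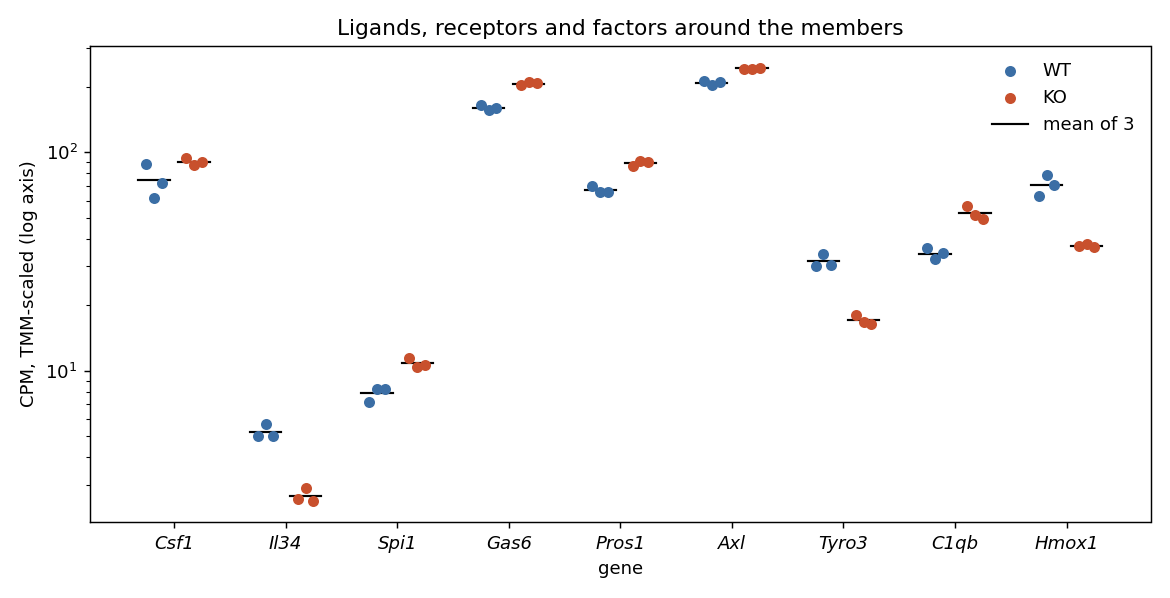
Level of the ligands, receptors and factors around the 10 genes in each sample, in TMM-scaled CPM on a log axis, with WT in blue, KO in orange and bars at the means of 3. Il34, Tyro3 and Hmox1 are lower in KO, C1qb is higher, and Csf1 overlaps between the genotypes.

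Among 20 genes of apoptotic cell uptake, 2 were called higher and 3 lower, against 8.31% and 8.39% of all genes tested. The median was 0.18. The bridging proteins that link MERTK to dying cells stayed under 1.5-fold: Gas6 had a log2 fold change of 0.36 (adjusted p = 6.59e-05) and Pros1 of 0.41 (4.24e-05), with every KO sample above every WT sample. Of the receptors related to Mertk, Axl was at 212, 203 and 209 CPM in WT and at 241, 241 and 244 CPM in KO and was not called (log2 0.22). Tyro3 was at 30.1, 34.4 and 30.5 CPM in WT and at 17.9, 16.8 and 16.4 CPM in KO and fell by 0.89 (adjusted p = 4.29e-06). Cd36, a fatty acid and lipoprotein receptor that muscle and endothelium also express, rose by 0.85 and Cd300lf by 1.07. Havcr1, a relative of Timd4, fell by 2.40 with an SE of 0.45, and its WT samples ranged from 2.65 to 10.7 CPM. Adgrb1 fell by 0.75.

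Of the 5 pathway lists, complement had the largest share called. Of 15 genes 13 were tested, with a median of 0.69. Of these, 8 were called higher and 0 lower, against 8.31% and 8.39% of all genes tested. C1ra and C1s1, the proteases that join C1q in the C1 complex, rose by 1.58 and 1.04, and C1ra was at 5.07, 5.02 and 4.89 CPM in WT and at 13.3, 14.8 and 16.7 CPM in KO. C4b and C2, which act next in the classical pathway, rose by 1.34 and 1.26. The inhibitor Serping1 rose by 0.69, and the receptors C3ar1 and C5ar1 by 0.83 and 0.89. C3 itself was at 116, 4.39 and 33.5 CPM in WT and at 31.7, 39.3 and 41.6 CPM in KO, and the spread within WT was wider than any difference between the groups (adjusted p = 0.664, edgeR).

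Haem handling, the pathway downstream of CD163, was mixed. Of 11 genes 2 were called higher and 1 lower, against 8.31% and 8.39% of all genes tested, with a median of 0.13. Hmox1, the haem oxygenase that degrades haem after uptake, was at 63.2, 78.3 and 71.0 CPM in WT and at 37.2, 38.2 and 36.9 CPM in KO, and it fell by 0.92 (log2, SE 0.069, adjusted p = 5.65e-06), opposite in sign to Cd163. Hp, which encodes the haptoglobin that CD163 binds with haemoglobin, rose by 0.99 and Hfe by 0.61. Over these 5 lists together, 96 different genes, 93 of them tested, gave 24 called higher and 8 lower. Of all genes tested, 8.31% were called higher and 8.39% lower. In 7 of the 8 lower genes WT replicate 2 was the highest of the WT samples, as it was in 8 of 8 keratinocyte genes, in 2 of the 10 resident macrophage genes and in 38.4% of all genes. The part of the skin transcripts in these 8 genes was not tested.

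Of 13 pan-leukocyte genes 1, Ptprc, which encodes CD45, was called higher and 0 lower, a share near that of all genes, and the median was 0.20. By adjusted p alone 6 of the 13 were higher and 0 lower, against 21.9% and 23.1% of all genes tested. In 8 of the 13 every KO sample was above every WT sample, as in 27.3% of all genes. Ptprc was at 8.09, 8.96 and 8.68 CPM in WT and at 15.8, 14.4 and 13.6 CPM in KO (log2 0.77, adjusted p = 2.89e-05). Lcp1, Arhgdib and Laptm5, the most abundant of the list, had 0.20, -0.09 and 0.39 (log2) and were not called. The summed level of the list was 254 to 278 CPM in WT and 289 to 333 CPM in KO. Of 8 genes of MHC class II and monocyte-derived cells 1 was called higher and 1 lower (median 0.38), against 8.31% and 8.39% of all genes. By adjusted p alone 5 were higher and 1 lower, against 21.9% and 23.1% of all genes. The gene called higher was Ly6c2, a surface marker of monocytes (log2 0.62, adjusted p = 0.0320). It had 37 to 62 counts in WT and 64 to 97 in KO. With DESeq2 or with library size only, 0 genes of this list were called higher. The gene called lower was Ccr2, the chemokine receptor of recruited monocytes (log2 -0.72, adjusted p = 0.00136). Cd74, H2-Ab1 and Plac8, the most abundant of this list, had 0.19, 0.47 and 0.40 (log2) and were not called.

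Other myeloid and neighbouring cell types had these values, beside 8.31% of all genes tested called higher and 8.39% lower. Of 12 neutrophil and myeloid precursor genes 4 were called higher and 0 lower (median 0.42), while their summed level ranged from 8.64 to 28.5 CPM within WT alone. Of 8 mast cell genes 5 were called higher and 0 lower (median 0.69). Cpa3, Cma1 and Tpsb2, the most abundant of that list, had 0.72, 0.18 and 0.65 (log2), and Cma1 was not called. Osteoclasts, which also carry CSF1R, had 0 of 10 called by edgeR and by DESeq2 (median 0.08), with 4 higher and 2 lower at an unadjusted p below 0.05. By adjusted p alone 2 were higher and 2 lower, against 21.9% and 23.1% of all genes tested. Blood endothelium had 0 of 7 called by both tools (median 0.17), with 6 higher and 0 lower at an unadjusted p below 0.05. By adjusted p alone 5 of the 7 were higher and 0 lower. Dendritic and Langerhans cells had 0 called higher and 1 lower of 6 tested (median -0.02), and 0 lower by DESeq2. Lymphocytes had 1 higher and 3 lower of 8 tested (median -0.14). Of 5 tested markers of macrophages of other tissues, P2ry12 was called higher (0.96) and Cd5l lower (-2.59), from a WT level of 0.315 to 0.475 CPM. In 7 proliferation genes 0 were called by either tool and the median was -0.20, with 0 higher and 5 lower at an unadjusted p below 0.05. By adjusted p alone 0 were higher and 5 lower, against 21.9% and 23.1% of all genes tested.

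**Figure D5:**
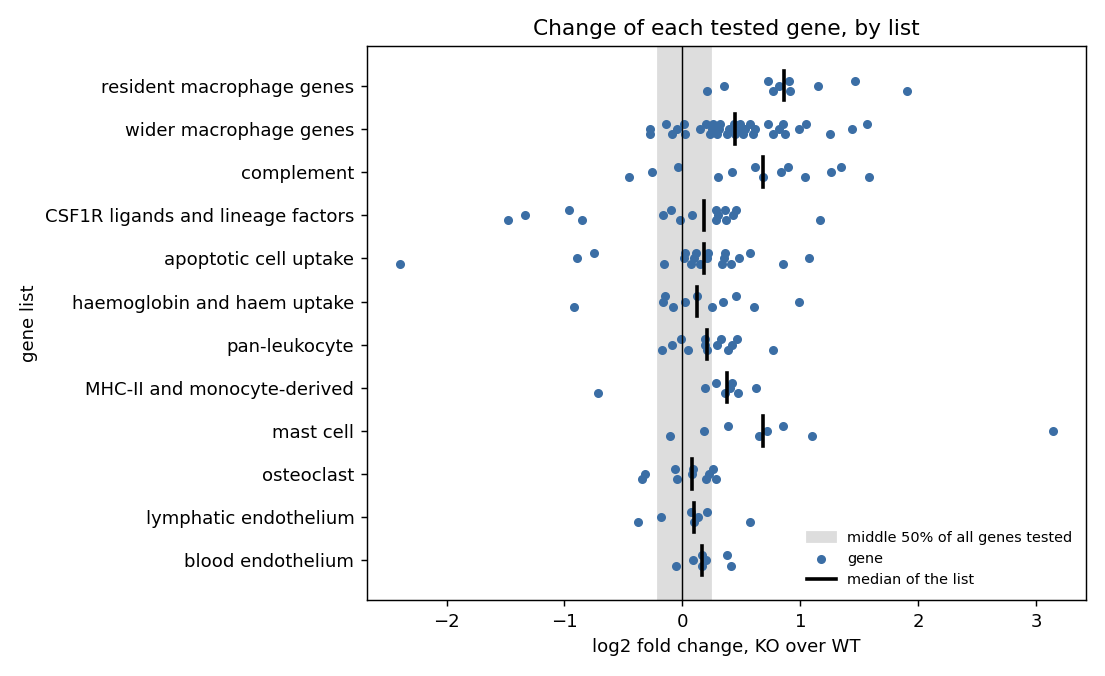
Log2 fold change in KO over WT of every tested gene in 12 lists, with 1 point per gene, a black bar at each list's median and a grey band over the middle 50% of all genes tested. The median of the 10 resident macrophage genes is 0.86, complement and mast cell genes reach 0.69, and the medians of the ligand, leukocyte, osteoclast and endothelium lists lie within the grey band.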

How the data were processed

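Fetal leg muscle RNA of 3 WT and 3 KO samples at E18.5 was sequenced in paired ends. Per the labels, the authors trimmed reads with Trim Galore 0.6.6, aligned them to mm10 with HISAT2 2.2.1 and counted them per gene with featureCounts 2.0.1. The authors deposited un-normalized read counts for each gene and sample. The annotation and the strand setting of the counting were not given in the sources used here. Of 56262 identifiers 37342 had a count, and 55227 were named through GENCODE M21.

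The 10 genes and all comparison lists were chosen with earlier results of these data known. Counts were filtered with filterByExpr, scaled by TMM and tested with the edgeR 4.0.16 quasi-likelihood F-test over 22071 genes with Benjamini-Hochberg adjustment. Genes were called at adjusted p below 0.05 and a fold change over 1.5, as in the study, whose tool DESeq2 (1.42.0 here) was an alternative, as was limma-voom (3.58.1). Group levels are mean ± SD of TMM-scaled CPM, and CPM per kb divides by exon length. SE is the log2 fold change over the root of F. Ratios were compared by exact permutation over samples. A floor of 3 counts corresponds to 0.0293 to 0.0366 CPM and covers counting error only. In each list up to 8 called genes were named by size of change if they averaged at least 1 CPM, direct partners always (1 of them is not reported here), and of other cell types the most abundant 3; Ptprc, Ly6c2, Ccr2, Mmrn1, P2ry12 and Cd5l were named after their values were seen.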

Additional observations from a re-analysis of the deposited data

How the results depend on the processing

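The 8 calls among the 10 genes were made under other normalization factors, DESeq2, limma-voom, no filter, a minimum of 10 counts in every sample, and without each sample in turn (8 in each). By adjusted p alone 10 were higher in each of these, except 9 with library size only, and 8 with either scaling to a list below. With the replicate block 8 were called; same-numbered samples did not deviate together (correlations -0.20, -0.13 and 0.047), so they share only a number, and the block gave 1744 genes higher and 1777 lower over all genes, against 1835 and 1852. With a fold change over 2, 3 of the 10 were called (Cd163, Folr2 and Timd4), and in the 5 pathway lists 10 genes were higher and 3 lower. With no fold-change threshold these lists gave 56 higher and 13 lower. All genes then gave 4838 higher and 5098 lower, and over 2-fold 774 and 1269. Scaling to blood endothelium counts turned Mertk to -0.0050 (adjusted p = 0.953) and put Csf1r at 0.14, where its adjusted p no longer passed; Adgre1 and C1qa, at 0.56 and 0.51, and with pan-leukocyte scaling at 0.58 and 0.54, then fell under 1.5-fold. By construction these scalings subtract the change of the chosen list from every gene, and of all calls 27.7% and 29.8% were then higher, against 49.8%. Timd4, with 32 to 120 counts per sample, is limited by depth.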
